A study of Mus musculus with 6 samples.

Results

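The genes of the proteasome, the protease that degrades ubiquitin-tagged proteins, were taken as every protein-coding gene of the RefSeq table on GRCm38.p6 whose symbol begins with Psma, Psmb, Psmc, Psmd, Psme, Psmf or Psmg. The rule took 51 of 21631 protein-coding genes on chromosomes 1 to 19 and X. In each library a gene was scored for a summit, the point of highest signal in a peak of open chromatin, within 1 kb of either annotated end. Summits were also extended by 250 bp on each side and merged over all libraries, and a merged region was assigned to the gene with the nearest end within 50 kb. By this second rule 127 of 73702 regions belonged to proteasome genes.

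The series compared open chromatin by ATAC-seq in the thymus of p53 AD/- mice, which carry a p53 allele named AD and described as dimeric, with the thymus of p53-null (p53 -/-) mice. In ATAC-seq a transposase cuts accessible DNA and the cut fragments are sequenced. There were 3 libraries of p53 AD/- thymus and 3 libraries of p53 -/- thymus. All mice were 4 weeks old, had germline p53 alterations on an equal BALB/C and C57BL6 background, and carried a null allele. The labels name no sorting of cells, so each library may mix the cell types of the thymus. All 13 thymocyte marker genes, among them Cd3e, Cd4, Cd8a and Rag1, had a gene-end summit in all 6 libraries.

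The lists were of unequal length, at 54618, 60160 and 44496 summits for AD/- libraries 1, 2 and 3, against 54152, 55653 and 58019 for null libraries 1, 2 and 3. AD/- library 3 was the shortest list, and it lacked 73.2% of the 7628 regions that were found in exactly 5 libraries. Read depth is unknown, and the length of a list counts how much was detected in it. The score of a summit is the authors' −log10 q-value. It is given below as a percentile, the rank of the score among all summits of the same library, with 100 at the top. The scores themselves differed in size between libraries. At the Psmb5 gene end the score was 394.9 in null library 2, against 98.8 to 192.2 in the other libraries. At the Psmb9 gene end it was 1031.2, against 244.1 to 447.1. The cause was not tested. Ranks from lists of different length show no change between libraries, so percentiles are descriptions and were not tested. Nothing in the labels says that the libraries of a genotype came from different mice, and the p-values below therefore measure the spread between these libraries.

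The proteasome is built from a barrel-shaped 20S core and caps. The alpha subunits form the outer rings of the core and gate its entrance, and the beta subunits form the inner rings, where Psmb5, Psmb6 and Psmb7 carry the proteolytic sites. In immune cells and after interferon these are replaced by Psmb8, Psmb9 and Psmb10, and in cortical epithelial cells of the thymus, which select developing T cells, Psmb11 takes the place of Psmb5. The 19S cap recognises, unfolds and feeds substrates, with ATPases named Psmc and non-ATPases named Psmd. The Psme proteins are alternative caps that open the core, Psmf1 is an inhibitor of the core, and Psmg1 to Psmg4 are chaperones of core assembly. When proteasome activity falls, the transcription factor Nfe2l1 raises transcription of most subunit genes through antioxidant response elements.

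Start regions of 7 members are shown because the results turn on them. They are RefSeq sequences of GRCm38.p6, written 5′ to 3′ on the gene's own strand, and each runs from 250 bases before to 50 bases after the annotated start site. Capitals mark matches to 4 of the motifs searched, TGACNNNGC (the antioxidant response element core), CCAAT (the NF-Y box), CACGTG (the E-box) and TATAAA (the TATA box), on either strand. A match of Psmb11 to the p53 half-site consensus, which begins 212 bases before the start, is left in lower case. Psmb5 (chr14:54617946-54618245, minus strand) had its summit at the same base in all libraries. Psmb8 (chr17:34197945-34198244, plus strand) and Psmb9 (chr17:34187281-34187580, minus strand) lie in the same gene cluster and differed widely in rank. Psmb10 (chr8:105938343-105938642, minus strand) had a summit near this start, just downstream of the window, in only some libraries, and Psmb11 (chr14:54625060-54625359, plus strand) in none. Psmf1 (chr2:151741261-151741560, minus strand) had its summit at a start site inside its annotated span, and Psma1 (chr7:114276067-114276366, minus strand) had its summit at a different base in each genotype.
Psmb5: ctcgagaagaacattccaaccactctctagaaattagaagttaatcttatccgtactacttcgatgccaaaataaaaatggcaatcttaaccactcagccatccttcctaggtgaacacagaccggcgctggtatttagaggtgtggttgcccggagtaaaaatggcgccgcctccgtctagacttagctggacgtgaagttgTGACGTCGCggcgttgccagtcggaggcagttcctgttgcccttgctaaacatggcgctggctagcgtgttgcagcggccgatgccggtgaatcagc
Psmb8: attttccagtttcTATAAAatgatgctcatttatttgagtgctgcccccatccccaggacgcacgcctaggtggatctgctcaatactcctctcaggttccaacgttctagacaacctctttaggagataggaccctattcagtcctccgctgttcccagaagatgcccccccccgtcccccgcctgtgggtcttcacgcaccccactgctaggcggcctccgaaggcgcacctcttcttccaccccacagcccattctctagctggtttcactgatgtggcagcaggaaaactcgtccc
Psmb9: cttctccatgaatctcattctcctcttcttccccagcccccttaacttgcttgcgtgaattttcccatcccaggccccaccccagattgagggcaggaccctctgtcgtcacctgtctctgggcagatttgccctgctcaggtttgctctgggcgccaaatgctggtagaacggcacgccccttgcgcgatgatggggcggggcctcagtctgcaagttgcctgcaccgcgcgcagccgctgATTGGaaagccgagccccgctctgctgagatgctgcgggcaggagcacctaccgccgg
Psmb10: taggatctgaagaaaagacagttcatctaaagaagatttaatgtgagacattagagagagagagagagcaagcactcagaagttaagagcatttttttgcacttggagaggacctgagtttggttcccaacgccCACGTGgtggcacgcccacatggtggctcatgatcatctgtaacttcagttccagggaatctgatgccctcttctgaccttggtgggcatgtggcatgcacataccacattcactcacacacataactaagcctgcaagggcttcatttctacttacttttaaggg
Psmb11: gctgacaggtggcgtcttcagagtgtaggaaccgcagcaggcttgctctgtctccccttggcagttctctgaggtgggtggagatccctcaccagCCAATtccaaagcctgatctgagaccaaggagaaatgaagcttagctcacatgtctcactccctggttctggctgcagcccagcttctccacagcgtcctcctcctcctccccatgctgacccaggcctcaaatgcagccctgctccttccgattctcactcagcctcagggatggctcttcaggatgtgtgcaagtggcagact
Psmf1: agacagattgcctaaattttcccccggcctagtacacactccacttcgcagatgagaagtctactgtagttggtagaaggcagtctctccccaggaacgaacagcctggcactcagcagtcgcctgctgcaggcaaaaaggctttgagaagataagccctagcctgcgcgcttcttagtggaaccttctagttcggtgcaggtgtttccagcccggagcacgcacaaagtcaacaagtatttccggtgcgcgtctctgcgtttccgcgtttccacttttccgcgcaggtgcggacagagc
Psma1: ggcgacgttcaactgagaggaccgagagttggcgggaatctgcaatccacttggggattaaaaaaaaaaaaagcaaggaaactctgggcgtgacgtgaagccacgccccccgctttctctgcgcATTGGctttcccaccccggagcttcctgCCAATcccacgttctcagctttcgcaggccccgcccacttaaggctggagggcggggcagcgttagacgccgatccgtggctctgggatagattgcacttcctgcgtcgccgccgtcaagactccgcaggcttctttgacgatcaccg

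A gene-end summit was found for most proteasome genes in every library and in both genotypes. It was present for 47, 47 and 46 of 51 genes in AD/- libraries 1, 2 and 3, against 47 genes in each of null libraries 1, 2 and 3. The share averaged 91.5% ± 1.13 in AD/- libraries and 92.2% ± 0 in null libraries (SD, n = 3 each), a difference of -0.654 percentage points. In the exact two-sided permutation test over the 20 relabellings p was 1, where the smallest p this design allows is 0.10. Only AD/- library 3 had a different count, so every relabelling gave a difference of the same size. With these counts no smaller p was possible, and the test decides nothing about the genotypes. Over all protein-coding genes the share was 55.8% ± 1.79 in AD/- and 56.4% ± 0.1003 in null libraries, with an exact permutation p of 0.9.

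In all, 46 of 51 proteasome genes (90.2%, 95% Wilson interval 79.0% to 95.7%) had a gene-end summit in all 6 libraries, 2 had one in some libraries and 3 had none. Over all protein-coding genes the share with a summit in all 6 libraries was 52.6%, with 6.70% in some and 40.7% in none. The other gene sets of large constitutive complexes stood as high, with 75 of 77 cytosolic ribosomal protein genes (97.4%) and 74 of 78 mitochondrial ribosomal protein genes (94.9%). The 2 members that varied between libraries were Psmb10 and Psmb11, and the 3 without a gene-end summit were Psma8, Psme2b and Psmf1. Intervals here and below cover counting error only.

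No proteasome gene had a gene-end summit in 1 genotype alone. The count of genes with a summit in all 3 AD/- and no null library was 0 of 51, against 0.0185% of all genes, and the count for all 3 null and no AD/- library was 0 of 51, against 0.0324% of all genes. A count of 0 of 51 allows a share of up to 5.88%. With a looser rule, at least 2 libraries of a genotype against 0 of the other, 0 members were found for AD/- (0.213% of all genes) and 1 member, Psmb11, for null (0.236% of all genes).

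**Figure D1:**
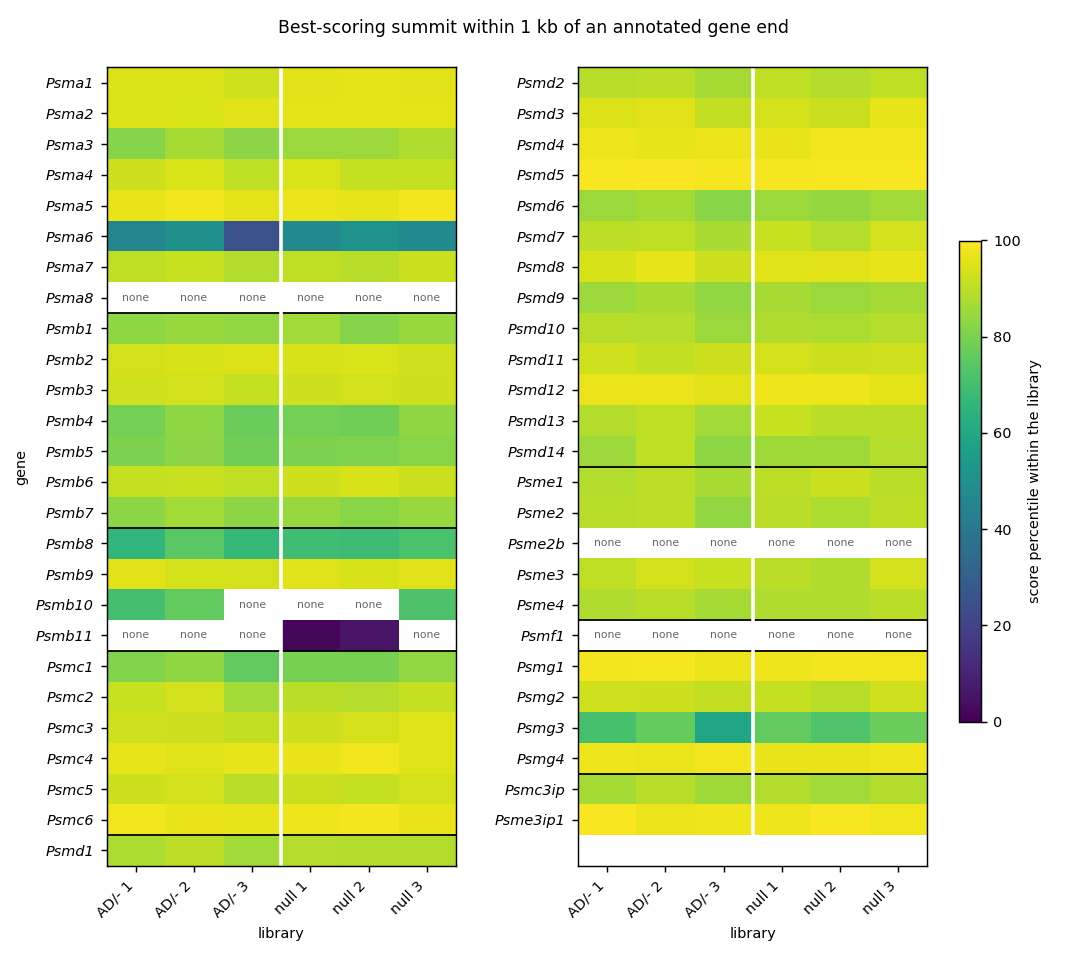
Score percentile of the best-scoring summit within 1 kb of an annotated gene end, for each of the 51 proteasome genes (vertical axes, grouped by role) in each library (horizontal axes, AD/- libraries left of null libraries). White cells marked none have no such summit; 46 genes are filled in all 6 libraries, and Psma6, Psmb8 and Psmg3 have the lowest mean percentiles among them.

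Among the alpha subunits, 7 of 8 genes had a gene-end summit in all 6 libraries, with mean percentiles between 44.5 and 97.0 and a median of 92.4. The exception was Psma8, the alpha subunit of the testis, which had no summit at a gene end in any library and no assigned region. Psma5 had the highest of these means and Psma6 the lowest. The summit near the annotated start of Psma6 (chr12:55384222-55418459, plus strand) lay 342 to 354 bp inside the gene, at percentiles of 45.9, 50.2 and 24.96 in AD/- libraries and 47.6, 50.9 and 47.5 in null libraries. AD/- library 3 was lowest by far, AD/- library 1 lay just below the null libraries, and AD/- library 2 lay among them.

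Psma6 has a second RefSeq start site at chr12:55398825, and there a stronger summit lay 30 to 86 bp upstream in every library. Its percentiles were 92.3, 92.2 and 93.1 in AD/- libraries and 92.4, 93.4 and 92.7 in null libraries, so the ranges overlapped. Psma3 had the same arrangement. Its summit outside the annotated start ranked between 81.9 and 88.2. The summit 51 to 144 bp downstream of its RefSeq start site at chr12:70974623 ranked at 93.7, 96.1 and 92.8 in AD/- libraries and 94.0, 93.4 and 96.3 in null libraries. For both genes the value at the annotated gene end was the lower of the pair.

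All 7 constitutive beta subunit genes had a gene-end summit in all 6 libraries, with a median mean percentile of 84.0 and a range of 79.9 to 93.8. Psmb5, which carries the chymotrypsin-like site, ranked at 80.1, 82.6 and 78.3 in AD/- libraries and 80.3, 80.6 and 82.1 in null libraries. Psmb6, which carries the caspase-like site, ranked at 91.1, 91.7 and 90.6 in AD/- libraries and 92.4, 94.0 and 92.2 in null libraries. Psmb7, which carries the trypsin-like site, ranked at 82.8, 86.2 and 82.7 in AD/- libraries and 84.7, 82.3 and 84.4 in null libraries. The genotypes overlapped for Psmb5 and Psmb7. For Psmb6 every null library ranked above every AD/- library, by less than the spread within the null libraries, and since ranks from lists of unequal length are set side by side here this is no measure of a change.

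The summit of Psmb5 (chr14:54614120-54617995, minus strand) lay at chr14:54618062 in all 6 libraries, 67 bp upstream of the start site. In the sequence shown above, the TGACNNNGC match of Psmb5 begins 47 bp upstream of the start. A further summit 7817 or 7809 bp downstream of the Psmb5 start appeared only in null libraries 2 and 3, at low percentiles of 14.4 and 22.2.

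Of the inducible subunits, 2 had a gene-end summit in all 6 libraries, with mean percentiles of 69.4 for Psmb8 and 94.6 for Psmb9. The 7 constitutive ones ranged from 79.9 to 93.8. With 2 genes, and a Psmb9 summit that also lay at Tap1, the spread of the groups cannot be compared. Psmb8 and Psmb9 lie beside the peptide transporter genes Tap1 and Tap2 in the major histocompatibility complex. Psmb8, the inducible counterpart of Psmb5, ranked at 65.6, 74.4 and 66.6 in AD/- libraries and 69.5, 68.7 and 71.5 in null libraries, and the ranges overlapped. Its summit lay 140 bp downstream of the start at the same base in every library. Psmb9, the counterpart of Psmb6, ranked at 95.3, 93.7 and 93.6 in AD/- libraries and 95.3, 94.1 and 95.5 in null libraries, again with overlap.

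The Psmb9 summit lay 109, 164 and 164 bp upstream of the start in AD/- libraries 1, 2 and 3, and 109, 109 and 71 bp upstream in null libraries 1, 2 and 3. It also lay 117 bp (median over the libraries) from the end of Tap1, so it cannot be credited to Psmb9 rather than Tap1. A separate summit at -1557 to -1537 bp from the Psmb8 start, where minus means upstream, was present in all 6 libraries at percentiles of 79.6 to 85.6, above the summit at the start itself. By the nearest-end rule this upstream summit was not assigned to Psmb8, so it cannot be credited to Psmb8 rather than a neighbour. At the 3′ end of Psmb8 weak summits were called in AD/- libraries 1 and 2, at 24.1 and 6.91, and also in null libraries 2 and 3, at 13.4 and 7.99, so this feature was divided within both genotypes. All 11 other genes of antigen processing, which include Tap1, Tap2 and B2m, had a gene-end summit in all 6 libraries.

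Psmb10, the inducible counterpart of Psmb7, had a summit inside the gene in every library, called at 1 of 2 positions. Summits are single points, so the lists do not show how far the open chromatin reached around them. A summit 251, 250 and 251 bp downstream of the start (chr8:105935728-105938392, minus strand) was called in AD/- libraries 1 and 2, as it was for null library 3, at percentiles of 70.4, 75.9 and 72.2. In AD/- library 3 and in null libraries 1 and 2 the summit lay instead 1269, 1304 and 1273 bp downstream, at percentiles of 63.6, 73.5 and 67.5. Each library had 1 of the 2 positions and none had both, and each genotype held libraries of both kinds. With a distance of 2 kb in place of 1 kb, Psmb10 had a gene-end summit in all 6 libraries. Its start region had the lowest CpG count of the 7 shown, with 3 CpG dinucleotides and a GC content of 45.7%.

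Psmb11 had no summit at its start site in any library. The nearest summit upstream of its start, at -7248 bp in all 6 libraries, was that of the neighbouring Psmb5. The only gene-end summits of Psmb11 (chr14:54625310-54629556, plus strand) lay beyond its 3′ end, 443 bp from it in null library 1 and 465 bp from it in null library 2. They were among the weakest of their libraries, at percentiles of 1.20 and 5.27. AD/- libraries 1, 2 and 3 and null library 3 had none. Of the 9 other marker genes of cortical thymic epithelium, 6, 7 and 4 had a gene-end summit in AD/- libraries 1, 2 and 3, against 7 in each of the null libraries. The fewest were thus in the shortest list. Of 9 endothelial and mesenchymal markers, 5, 5 and 4 had one in AD/- libraries 1, 2 and 3, against 3, 4 and 3 in null libraries 1, 2 and 3. Of 7 myeloid and dendritic markers, 3, 3 and 1 had one in AD/- libraries 1, 2 and 3, against 3 in each null library. Of 6 medullary epithelial markers, 3 had one in each of the 6 libraries. Among the cortical markers, Ctsl, Ly75 and Ccl25 had a gene-end summit in all 6 libraries. Foxn1, the defining factor of thymic epithelium, had one in AD/- libraries 2 and 3 and in all 3 null libraries, and Krt8 and Cxcl12 had none in any library. The part of epithelial cells, and of list length, in the Psmb11 result was not tested. In tissue of mixed cells, fewer cells of a type and less open DNA per cell cannot be told apart.

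**Figure D2:**
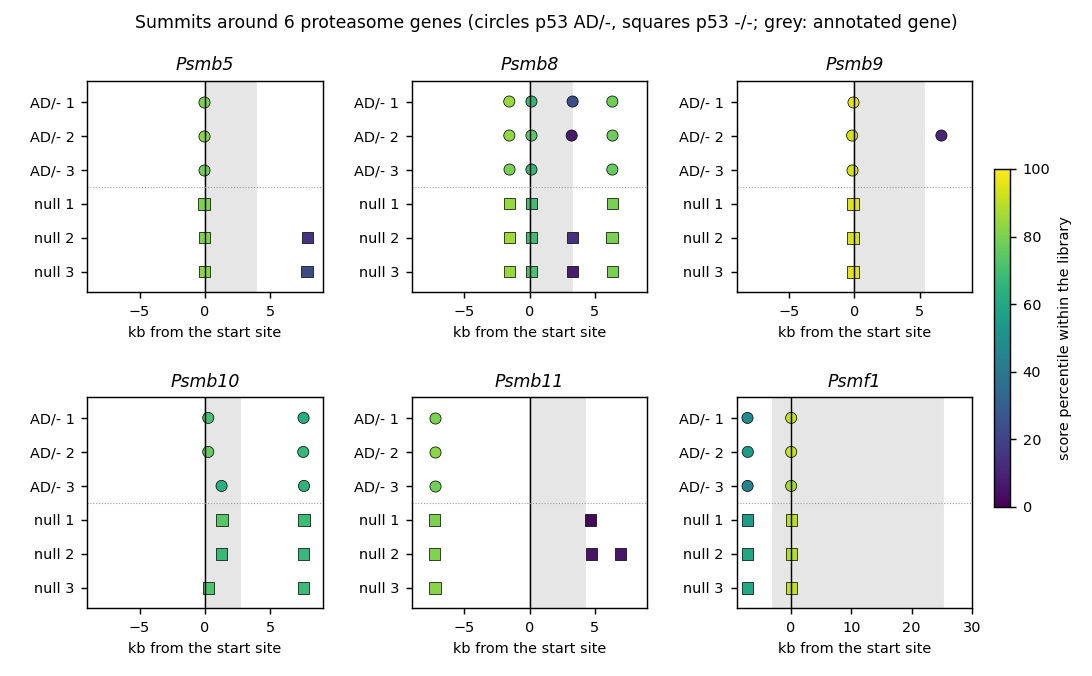
Summits around Psmb5, Psmb8, Psmb9, Psmb10, Psmb11 and Psmf1 (horizontal axes, kb from the RefSeq start site, downstream to the right) in each library (vertical axes, AD/- circles above null squares), with the annotated gene in grey and the score percentile as colour. Psmb5 and Psmb8 have their start summit at one position in all 6 libraries, Psmb10 has 1 of 2 positions in each library, and Psmb11 has no summit at its start, its left-hand points being the Psmb5 summit.

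The 6 ATPase genes of the 19S cap all had a gene-end summit in all 6 libraries, with a median mean percentile of 92.4 and a range of 80.5 to 97.1. Psmc1 was the lowest and Psmc6 the highest of them. All 14 genes named Psmd, counted here as non-ATPases, had one too, with a median of 89.7 and a range of 84.9 to 99.0. Among the 14, Psmd5, Psmd9 and Psmd10 are chaperones of base assembly. The 14 also include Psmd1 and Psmd2, the scaffold of the base, Psmd4, a ubiquitin receptor, and Psmd14, the deubiquitinase that removes ubiquitin from substrates. The mean percentile was 97.2 for Psmd4 and 86.5 for Psmd14. Psmd5, a chaperone of base assembly, had the highest mean of any member, with percentiles of 99.0, 99.3 and 98.8 in AD/- libraries and 98.5, 99.1 and 99.2 in null libraries. The Psmd5 values of the genotypes overlapped within 1 percentile point.

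Of the 5 activator genes, 4 had a gene-end summit in all 6 libraries. Psme1 and Psme2 encode the interferon-inducible cap that favours release of peptides for antigen presentation. Psme1 ranked at 88.6, 90.1 and 86.9 in AD/- libraries and 90.2, 92.0 and 89.8 in null libraries. Psme2 ranked at 89.1, 89.9 and 83.7 in AD/- libraries and 89.5, 87.8 and 89.9 in null libraries. Both genes overlapped between genotypes, and AD/- library 3 gave the lowest value for each. The Psme2 summit lay 516 to 567 bp upstream of its start site and nearer to the end of Rnf31, at a median of 51.5 bp, so it cannot be credited to Psme2 rather than Rnf31. Psme3, the nuclear activator, and Psme4, which caps the core in chromatin and in germ cells, had mean percentiles of 91.1 and 88.3. Psme2b, a gene of 1066 bp whose symbol names it as a second Psme2, had no summit at an end, at its start site or in an assigned region. No source used here says how reads that fit several places were treated, which limits any statement on such copies.

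Psmf1, the only inhibitor, had no gene-end summit by the 1 kb rule. Its annotated span (chr2:151716062-151744199, minus strand) begins upstream of the RefSeq start site at chr2:151741310, and a summit lay 42 or 43 bp downstream of that site in all 6 libraries. That summit ranked at 90.5, 92.1 and 86.1 in AD/- libraries and 89.7, 88.2 and 90.96 in null libraries. The genotypes overlapped, and the rank was close to the median of members with a gene-end summit. A second summit at -7207 to -7148 bp, upstream of the start site, was also found in every library, at 47.9, 55.4 and 44.5 in AD/- libraries and 54.9, 59.7 and 60.1 in null libraries.

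The 4 assembly chaperones of the core all had a gene-end summit in all 6 libraries. Psmg1 ranked at 98.3, 98.7 and 97.0 in AD/- libraries and 97.6, 98.4 and 97.8 in null libraries. Psmg3 ranked at 70.8, 76.2 and 58.9 in AD/- libraries and 75.8, 72.6 and 77.0 in null libraries. The genotypes overlapped for both, and the mean of Psmg3, 71.9, was the third lowest of the 46 members with a gene-end summit in all libraries. Psmc3ip, a partner of meiotic recombinases, and Psme3ip1, a protein that binds Psme3, are no proteasome parts but share the prefixes. Both had a summit in all 6 libraries, and Psme3ip1 ranked at 99.1, 96.9 and 97.3 in AD/- libraries and 97.3, 99.2 and 98.0 in null libraries. Without this pair, 44 of 49 genes (89.8%) had a gene-end summit in all libraries.

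The 46 members with a gene-end summit in all 6 libraries had a median mean percentile of 90.7, with quartiles of 86.7 and 94.8. Over the 11385 protein-coding genes with one, the median was 89.1 and the quartiles were 78.9 and 94.8. Thus 29 of 46 members lay above the median of all genes and 12 lay above its upper quartile. The lower part of the distribution differed more than the upper part. The medians were 92.8 for cytosolic and 90.01 for mitochondrial ribosomal protein genes. Within libraries the median of the members was 90.8, 91.6 and 89.1 in AD/- libraries and 91.4, 89.5 and 92.1 in null libraries, against 89.2, 90.3 and 86.9 in AD/- and 89.2, 89.3 and 89.9 in null libraries for all genes.

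**Figure D3:**
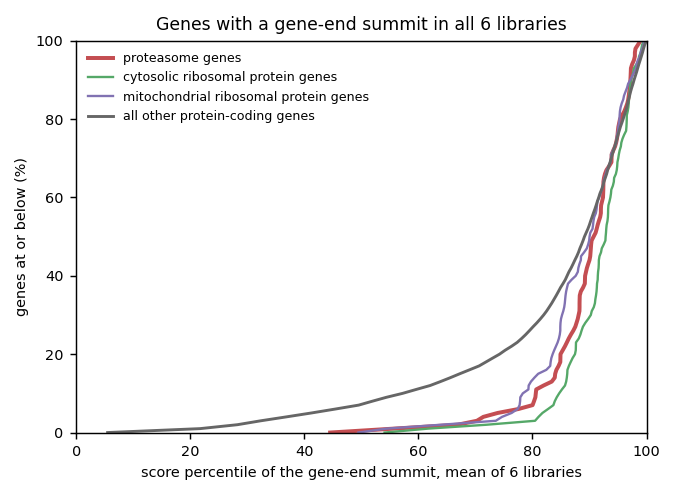
Cumulative share of genes (vertical axis, %) by the score percentile of the gene-end summit (horizontal axis, mean of 6 libraries) among genes with such a summit in all libraries. The curve of the proteasome genes (median 90.7) lies between those of cytosolic (92.8) and mitochondrial (90.01) ribosomal protein genes over much of its range. It crosses the curve of all other genes between 63% and 75% of genes. Above that it runs at lower percentiles, with 97.2 against 97.8 at 90% of genes.

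Other genes of the pathway were looked at in the same way. Of 29 matched partners of the proteasome, such as the unfoldase Vcp and the assembly factor Pomp, 27 had a gene-end summit in all 6 libraries, with a median percentile of 94.3. Ecpas and Ube4b had none in any library, and no partner varied between libraries.

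RefSeq start sites were given for 43 of the 51 members, and 40 of these 43 (93.02%) had a summit within 1 kb of a start site in all 6 libraries, against 55.2% of 17274 genes. Psmb10 had one in some libraries, and Psmb11 and Psme2b had none. The median position relative to the start site was -40.25 bp for members and -26 bp for all genes, where a minus sign means upstream. The summit lay within 100 bp of the start site for 30 of 40 members (75%), against 66.9% of genes. Psme2 was the farthest, on the side of Rnf31.

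**Figure D4:**
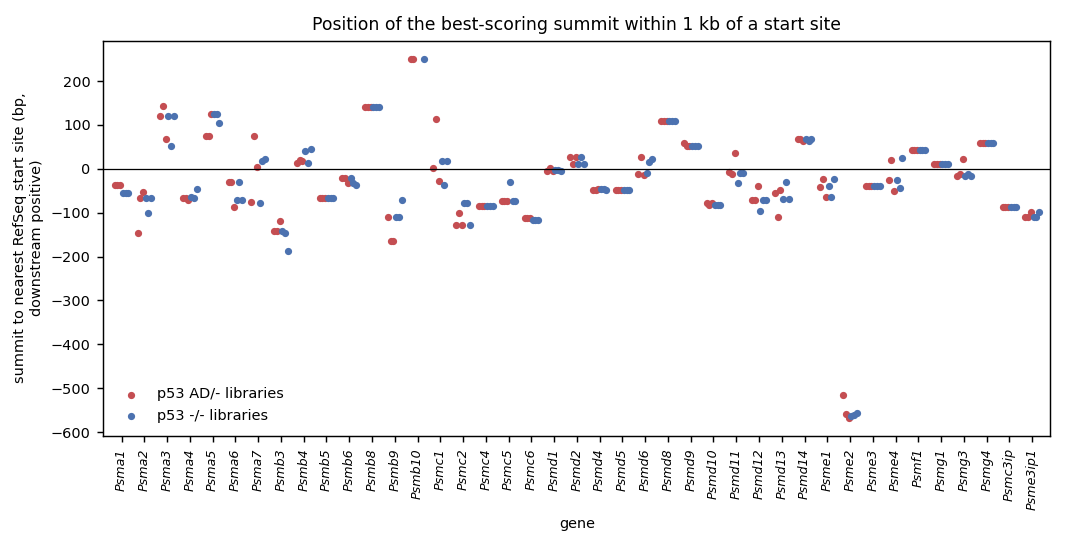
Distance of the best-scoring summit within 1 kb of a RefSeq start site (vertical axis, bp, downstream positive) for each member that has one (horizontal axis), with 1 point per library, AD/- libraries left of null libraries. Most points lie within 100 bp of the start site, Psme2 lies over 500 bp upstream, and Psmb10 has points in 3 libraries only.

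The positions of the member summits were closely repeated between libraries. The median range over the 6 libraries was 36 bp for the 46 members and 49 bp for 11371 genes. The range was 10 bp or less for 16 of 46 members (34.8%), against 13.3% of genes. The same base was called in all 6 libraries for 5 members (10.9%), against 3.32% of genes. These 5 were Psmb5, Psmb8, Psmc3ip, Psme3 and Psmg4. Among cytosolic and mitochondrial ribosomal protein genes the share within 10 bp was 18.7% and 6.76%, and the share at the same base was 5.33% and 0%.

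The positions did not overlap between genotypes for 2 of 46 members, in a measure chosen after the data had been seen. This was 4.61% of all genes and 4.35% of members, so the member share is that of the background. For Psma1, an alpha subunit, the summit lay 36 bp outside the annotated start in all 3 AD/- libraries and 55 bp outside it in all 3 null libraries. For Psmc6, an ATPase, it lay 110 bp outside in all 3 AD/- libraries and 115 bp outside in all 3 null libraries. The gap was thus 19 bp for Psma1 and 5 bp for Psmc6, against a median of 9.5 bp over all such genes. In the Psma1 sequence shown above the CCAAT matches begin 126 and 98 bp upstream of the start, and both summit positions lie downstream of them. The percentiles of the Psma1 summit were 94.8, 94.6 and 92.8 in AD/- libraries and 95.6, 95.9 and 95.7 in null libraries, so every null library ranked higher, in lists of unequal length.

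A neighbouring gene end was close to some of these summits, at about the share seen over all genes. The summit lay within 1 kb of an end of another protein-coding gene for 13 of 46 members (28.3%), against 26.02% of genes. Examples are Psma2 with Mrpl32, Psma7 with Ss18l1, Psmc2 with Dnajc2, Psmc5 with Ftsj3 and Psmd13 with Sirt3. For 6 members, Psmc2, Psmc5, Psmd13, Psme2, Psme3ip1 and Psmg2, the median summit was nearer to the neighbour. The same share over all genes was not computed. Of these 6 members, 4 (Psmc5, Psmd13, Psme2 and Psmg2) had no assigned region although each had a gene-end summit in all libraries.

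Of the 127 regions assigned to proteasome genes, 81 (63.8%, 95% Wilson interval 55.1% to 71.6%) were found in all 6 libraries and 15 (11.8%) in 1 library. Over the 59148 regions assigned to other genes, 54.3% were found in all 6 libraries. Of the 127 member regions 45 (35.4%) were gene-end regions, against 22.7% of the others. Of these gene-end regions, 88.9% for members (76.5% to 95.2%) and 79.1% for the others had summits in all 6 libraries. The interval of the members thus includes the share of the others. Away from gene ends the share was near the background, with 50% of 82 member regions (39.4% to 60.6%) and 47.0% of the others.

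**Figure D5:**
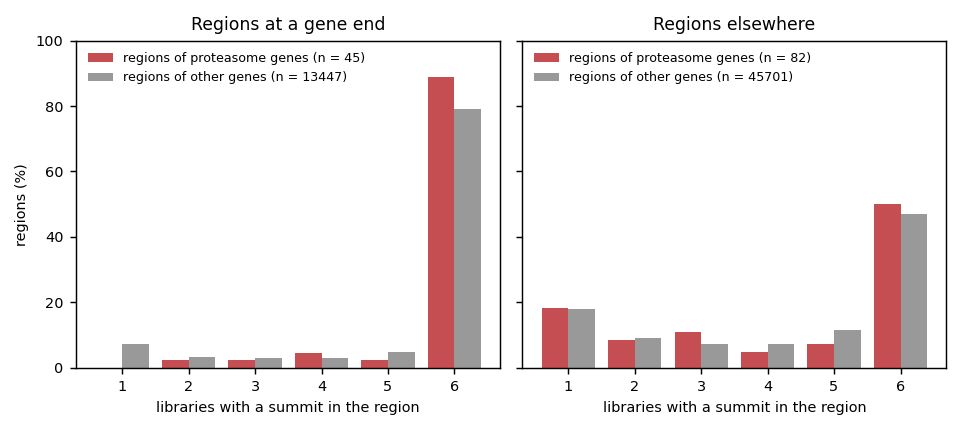
Share of regions (vertical axis, %) by the number of libraries that have a summit in the region (horizontal axis), for regions at a gene end and elsewhere. Regions of proteasome genes (n = 45 and n = 82) are drawn left of regions of other genes, and 88.9% and 50% of them are found in all 6 libraries.

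The number of member regions held was 101, 111 and 85 in AD/- libraries 1, 2 and 3, against 100, 105 and 104 in null libraries 1, 2 and 3. It was lowest in the shortest list, AD/- library 3, and highest in the longest, AD/- library 2. As a share of all regions held, member regions made up 0.187% ± 0.00367 in AD/- libraries and 0.185% ± 0.00468 in null libraries (SD, n = 3 each). The exact two-sided permutation p was 0.5, and the difference was smaller than either SD.

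No member region was found in 1 genotype alone. The count was 0 of 127 for all 3 AD/- and no null library, against 0.179% of all regions, and 0 of 127 for all 3 null and no AD/- library, against 0.418% of all regions. A count of 0 of 127 allows a share of up to 2.36%. With the looser rule of at least 2 libraries against none, 0 member regions were found for AD/- (1.51% of all regions) and 4 for null (2.37% of all regions). The 4 regions lay 32.1 kb from Psma6 (null libraries 2 and 3), 3938 bp from the end of Psmb5 (null libraries 2 and 3), 454 bp from Psmb11 (null libraries 1 and 2) and 23.1 kb from Psmg1 (null libraries 1 and 3). All were weak, with percentiles between 1.20 and 22.2.

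Of the 7 member regions found in exactly 5 libraries, 6 lacked AD/- library 3, among them 2 regions of Psmg3 and 1 each of Psmb3, Psma6, Psmc1 and Psma1. The seventh, at Psma3, lacked null library 1. These absences stood in the shortest list, as did most of the regions in exactly 5 libraries over the whole genome. The part of list length in these absences was not tested.

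Regions were spread unevenly over the members. The median was 2 regions per member and 1 over all genes, and 50 of the 127 lay inside the member's own gene. Psma6 had 15 regions, of which 7 were found in all 6 libraries. Psma1 had 11, of which 6 were found in all 6 libraries, and the strongest of these away from the gene lay 41.5 kb from it, at percentiles of 88.4, 89.2 and 86.1 in AD/- libraries and 88.5, 90.3 and 89.2 in null libraries. Psmg1 had 9, of which 6 were found in all 6 libraries, with an intragenic region 5127 bp from the nearer gene end at 85.7, 86.1 and 78.8 in AD/- libraries and 83.9, 85.1 and 84.2 in null libraries. The genotypes overlapped at both sites.

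The start regions of the 43 members with a RefSeq start site were searched for 7 motifs on both strands, and the same windows of 300 bases were searched for all 17274 genes. The antioxidant response element core TGACNNNGC was present in 6 members (14.0%), Psmb5, Psmb6, Psmc6, Psmd9, Psmd12 and Psme4, against 14.9% of genes. The ETS site CCGGAAG was present in 16 members (37.2%), against 13.1% of genes. These 16 were 1 alpha subunit (Psma6), 3 ATPases, 6 non-ATPases, 2 activators, 2 chaperones, Psmc3ip and Psme3ip1. No beta subunit that was searched had a match, but Psmb1, Psmb2 and Psmb7 had no tabled start region and were not searched. The interferon response element, GAAA and GAAA with any 2 bases between, was present in 5 members (11.6%), Psmb3, Psmd4, Psmd9, Psme1 and Psmg4, against 3.98% of genes, and Psmb8, Psmb9 and Psmb10 had no match in this window.

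The CCAAT box was present in 16 members (37.2%) against 42.7% of genes, the NRF1 core, GCGC and GCGC with any 2 bases between, in 7 (16.3%) against 9.73%, the E-box CACGTG in 5 (11.6%) against 9.02%, and TATAAA in 4 (9.30%) against 14.9%. The p53 half-site consensus, added after the data had been seen, was matched in 2 members, Psmb11 and Psme2b (4.65%), against 8.54% of genes, and these 2 members had no summit at their start site in any library. A match is a stretch of letters and no measure of binding. The start regions of members had a median GC content of 57.3% and a median of 19 CpG dinucleotides, against 56.7% and 14 for all genes. Of the sequences shown above, Psma1 had 25 CpG dinucleotides and Psmb11 had 4.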

How the data were processed

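Per library, the authors deposited a list of summits, which the labels tie to single samples, so nothing was pooled. Every line holds a position of 1 bp and a score. The deposited score was read as −log10 of a q-value, since the lowest scores, 1.30 to 1.39, match a q-value of 0.05 (1.30). Per the submitters' processing notes, which give no roles, the tools were MACS2 2.1.2, Picard 2.9.0, Bowtie2 2.3.4.2 and Trim Galore 0.4.5 on GRCm38. No source used here states a shift for the transposase or a removal of duplicates. Reads of 50 nt are stated in the labels. Read depth is unknown, which limits precision. Replicates were numbered in order of deposition, with groups from the genotype label.

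Gene ends and start sites came from RefSeq tables on GRCm38.p6. Python 3.11.15, pandas 2.3.3, NumPy 2.4.6 and SciPy 1.17.1 were used, and the counting was tested on simulated data. Group means were compared by the exact two-sided permutation test, and shares carry 95% Wilson intervals. All members were counted by role. Named with values in each library were members lacking a gene-end summit somewhere, the catalytic beta subunits, their inducible and thymic counterparts, Psme1, Psme2, the 3 highest and 3 lowest by mean percentile and the 3 with most regions. Members and lists were chosen with earlier results of these data known. Alternatives were distances of 500 bp and 2 kb, start sites alone, extensions of 100 and 500 bp, assignment within 10 kb, a score of at least 5, equal lists, a looser rule and leaving out each library. No genome sequence was used, and 8 members without a tabled start region were not searched for motifs. They were Psma8, Psmb1, Psmb2, Psmb7, Psmc3, Psmd3, Psmd7 and Psmg2.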

Additional observations from a re-analysis of the deposited data

How the results depend on the processing

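The difference in the share of proteasome genes with a gene-end summit, -0.654 percentage points (AD/- minus null), rested on AD/- library 3 alone. Its sign depended on the setting. It was 0.775 with RefSeq start sites alone (43 genes) and 0.654 with lists of equal length (the 44492 best summits of each library), where the weak summits of Psmb11 drop out. It was 0 with scores of at least 5 and -1.31 with a distance of 2 kb, and it ranged from -0.980 to 0 when each library was left out, with 0 reached without AD/- library 3. The difference in the share of regions held that belong to proteasome genes, 0.00261 percentage points, was -0.000601 with lists of equal length, 0.00748 with scores of at least 5 and 0.00582 with assignment within 10 kb, and it ranged from 0.000115 to 0.00477 when each library was left out. The share of member regions found in all 6 libraries was 63.8%, 73.8% with assignment within 10 kb, 80.8% with lists of equal length, and 63.8% to 68.5% over the remaining libraries when each library was left out. Members and member regions found in AD/- alone numbered 0 under every setting run. Those found in null alone numbered 0 except under the rule of at least 2 of 3 (1 gene and 4 regions) and when a library was left out (0 to 1 genes, Psmb11 without null library 3, and 0 to 2 regions, with 2 without null library 1 and 1 without null library 2 or 3). Non-overlapping summit positions, 2 members, ranged from 3 to 5 when each library was left out, with 4 without AD/- library 1 and 5 without AD/- library 2, null library 2 or null library 3, since fewer positions then have to be kept apart. For these results the shares over all genes and all regions were computed only under the rules used above, including that of at least 2 of 3. Values under the other settings, and with a library left out, have no background beside them. A rise such as that with assignment within 10 kb or equal lists therefore cannot be read as particular to the members. The cause of the other changes was not tested. No paired analysis was possible because the labels name nothing that links an AD/- library to a null library. With 3 libraries a side, the exact permutation test cannot give a p below 0.10.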
